A study of Rattus norvegicus with 42 samples.

Results

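The liver carboxylesterases described here are Ces1c, Ces1d, Ces1e, Ces1f, Ces2c and Ces2e. The genes were chosen by name, from a list drawn up with earlier results of these libraries known, so a call among them is a description and not an independent test. Of the 6 names, 3 (Ces1d, Ces1f and Ces2e) have rows in the table of elongating RNA polymerase II phosphorylated at serine 2 (pSer2 Pol2), and Ces1c, Ces1e and Ces2c have none under those names and were left out. The 3 genes hold 14 of the 60999 rows of that table, which fall on 10 distinct positions, and 9 of these positions held sequencing tags. They hold 3 of the 22929 genes of the RNA count table. The glucocorticoid receptor (GR) table holds 3981 regions, of which 3 lie within 50 kb of a start of Ces1d, Ces1f or Ces2e. Those 3 were selected on distance, and every region of that table was itself selected on a peak call in at least 1 group.

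All samples are pieces of liver from adrenalectomised male Sprague Dawley rats. The rats had dexamethasone after surgery and corticosterone in the drinking water during recovery. The corticosterone was withdrawn before the infusions so that it would clear from the circulation. Corticosterone (CORT) or vehicle (VEH) was given as repeated pulses (PULS) or as an even infusion (CONS). For GR and pSer2 Pol2, each of the 5 groups had 2 libraries. PEAK_140 and NADIR_180 are pulsatile CORT at 140 min, the top of a pulse, and at 180 min, the trough. CONS_140 and CONS_180 are constant CORT at the same times, and VEH is pulsatile vehicle with 1 library at 140 min and 1 at 180 min. The 4 ChIP comparisons against VEH share these 2 VEH libraries, and each ChIP library pooled several animals. RNA was sequenced at 180 min in 4 groups of 3 libraries (PULS CORT, PULS VEH, CONS CORT and CONS VEH). Depth ran from 2051977 to 6715803 tags for GR, from 4938473 to 9326927 tags for pSer2 Pol2, and from 3956379 to 7777219 reads for RNA.

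Carboxylesterases are serine hydrolases of the hepatocyte endoplasmic reticulum that cleave ester and amide bonds of drugs and of lipids. Ces1d hydrolyses stored triacylglycerol and supplies lipid for very low density lipoprotein, and Ces1f is a closely related lipid hydrolase. Ces1c is a secreted enzyme of rodent plasma, and Ces1e is egasyn, which holds beta-glucuronidase in the endoplasmic reticulum. Ces2 enzymes, among them Ces2c and Ces2e, hydrolyse drug esters and acylglycerols. GR is a ligand-activated transcription factor that binds palindromic DNA elements, and pSer2 Pol2 marks polymerase that is transcribing through a gene body.

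Promoters of 3 of the 6 genes are shown because the results turn on them. Ces1f is shown because the region that fell bears its name, and Ces2e because its RNA rose. Ces1c is shown because the GR region at the start of the region that fell, though named Ces1f, was also annotated to a Ces1c transcript. The sequences are the RefSeq promoter windows of build GRCr8, forward strand, from 250 bases before to 50 bases after the start. Capitals mark the core GR hexamer AGAACA or its reverse complement TGTTCT.
Ces1f, chr19:29969383-29969682: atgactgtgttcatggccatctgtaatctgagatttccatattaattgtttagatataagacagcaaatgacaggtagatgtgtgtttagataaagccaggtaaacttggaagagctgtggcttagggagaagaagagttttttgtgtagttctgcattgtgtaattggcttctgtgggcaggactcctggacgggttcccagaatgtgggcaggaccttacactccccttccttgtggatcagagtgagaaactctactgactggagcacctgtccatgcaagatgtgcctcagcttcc
Ces1c, chr19:30099197-30099496: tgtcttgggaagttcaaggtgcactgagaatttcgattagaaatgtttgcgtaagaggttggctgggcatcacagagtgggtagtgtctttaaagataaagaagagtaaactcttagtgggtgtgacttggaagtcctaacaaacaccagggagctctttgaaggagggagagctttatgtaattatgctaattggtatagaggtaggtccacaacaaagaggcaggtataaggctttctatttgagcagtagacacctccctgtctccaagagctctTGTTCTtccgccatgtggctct
Ces2e, chr19:163649-163948: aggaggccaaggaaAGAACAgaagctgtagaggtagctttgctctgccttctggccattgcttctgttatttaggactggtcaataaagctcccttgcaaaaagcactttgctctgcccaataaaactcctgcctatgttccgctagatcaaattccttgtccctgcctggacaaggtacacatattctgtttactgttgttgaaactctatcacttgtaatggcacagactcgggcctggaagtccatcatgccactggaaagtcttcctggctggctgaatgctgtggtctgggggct
The hexamer was searched on both strands, and the full palindrome, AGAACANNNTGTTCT, contains it. The Ces1c window held 1 hexamer, at bases 29 to 34 after the start. The Ces2e window held 1, at bases -236 to -231 relative to the start. The windows of Ces1f, Ces1e, Ces1d and Ces2c held none, and none of the 6 held the palindrome. Of 33469 promoter windows of the same length, 20.7% held the hexamer and 0.0149% (5 windows) held the palindrome. A match of this kind describes the letters and does not show a binding site. The longest run shared by any pair of the 6 windows was 8 to 12 bases.

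Ces1 genes lie side by side on chromosome 19. In the rn6 coordinates of the deposited table, which counts polymerase tags over at most the first 10 kb of each transcript, the Ces1f rows form 4 separate stretches on the forward strand. Region A starts at chr19:15081158-15091158 (transcript ENSRNOT00000074070), region B at chr19:15094309-15104309 (ENSRNOT00000083500), region C at chr19:15139920-15149920 (ENSRNOT00000020775) and region D at chr19:15294248-15304248 (ENSRNOT00000024622). Ces1d has a row without tags at chr19:15033108-15043108 and one with tags at chr19:15195565-15205565 (ENSRNOT00000090865). Ces2e has its row at chr19:85606-95606. The table names region D as Ces1f, and the GR table also gives Ces1f as the gene of the GR region at that start. The detailed annotation of that GR region, however, gives a RefSeq transcript that RefSeq pairs with Ces1c. In RefSeq's newer build the order along the chromosome is Ces1f, Ces1e, Ces1d and Ces1c. Region D follows both Ces1d rows on the chromosome, as Ces1c follows Ces1d in that order. The Ces1d row without tags lies before every Ces1f row, which departs from that order. Ces1e, which has no row by name, lies between Ces1f and Ces1d in that order, and the names of regions A to C were not checked. The name Ces1f for region D is therefore uncertain, and it is called region D here.

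**Figure D1:**
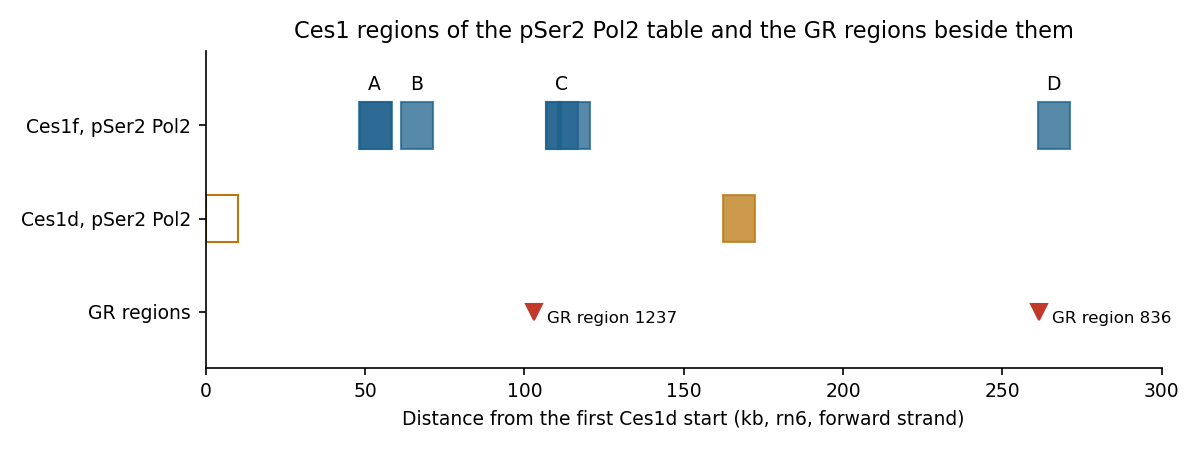
Map of the Ces1 rows of the pSer2 Pol2 table and of the 2 GR regions beside them, against distance in kb from the first Ces1d start (rn6, forward strand). Boxes are counted regions, the open box held no tags, darker blue marks overlapping regions, and triangles are GR region centres. GR region 836 sits at the start of region D and GR region 1237 just before region C.

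At region D, elongating polymerase was far lower at the top of a CORT pulse than in any other group. On the deposited log2 scale the VEH libraries stood at 7.40 (140 min) and 7.20 (180 min), and the PEAK_140 libraries at 3.23 and 3.16. NADIR_180 stood at 6.13 and 6.11, CONS_140 at 6.60 and 6.15, and CONS_180 at 6.12 and 5.86. Both PEAK_140 libraries lay below the lowest of the other 8 with no overlap, and all 6 other CORT libraries lay between PEAK_140 and VEH.

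In PEAK_140 against VEH, pSer2 Pol2 at region D fell by 4.11 on the log2 scale (SE 0.31, limma adjusted p = 0.0012). The PEAK_140 values lie near the lowest values of the Ces1d row with tags (3.57), region A (3.03) and region C (2.85). Whether they sit at a floor was not tested, so the size of this fall and its SE may be set by one. PEAK_140 was lower than NADIR_180 by a log2 difference of -2.93 (SE 0.31, adjusted p = 0.0030) and lower than CONS_140 by -3.18 (SE 0.31, adjusted p = 0.022). The change between 140 and 180 min differed between pulsatile and constant CORT, with a difference of -3.31 (SE 0.44, adjusted p = 0.032). NADIR_180 (-1.18), CONS_140 (-0.93) and CONS_180 (-1.31) were below VEH without passing the test, and NADIR_180 and CONS_180 differed by 0.13 (SE 0.31, adjusted p = 1.00). Fitted with the libraries of each comparison alone, none of the region D calls passed the threshold, and the adjusted p for PEAK_140 against VEH was 0.25. The comparison of PEAK_140 with VEH passed whichever single library was left out, with differences of -4.21 to -4.00. PEAK_140 against NADIR_180 did not pass without PEAK_140 replicate 1 (adjusted p = 0.069) or NADIR_180 replicate 1 (adjusted p = 0.10). PEAK_140 against CONS_140 did not pass when any VEH, PEAK_140, NADIR_180 or CONS_180 library was left out (adjusted p = 0.065 to 0.17). The difference of the time effects passed in no fit without 1 library except that without CONS_140 replicate 2 (adjusted p = 0.064 to 0.33 in the others).

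In the same comparison 2 cell type markers fell in pSer2 Pol2, Pdgfrb, a stellate cell receptor, by a difference of -3.43 (adjusted p = 0.011) and Ttr, the hepatocyte carrier of thyroid hormone, by -1.73 (adjusted p = 0.010). They were 1 of 3 stellate cell markers tested, whose median was -0.17, and 1 of 5 hepatocyte markers, whose median was 0.36. Each median took every gene at its region of largest absolute difference. Of all pSer2 Pol2 regions 0.989% were called in that comparison. None of the 5 Kupffer cell, 4 endothelial, 3 cholangiocyte or 3 intestinal markers tested was called. Cps1, the hepatocyte enzyme of the urea cycle, was higher in PEAK_140 than in NADIR_180 (1.29), higher in CONS_140 than in VEH (1.29) and lower in NADIR_180 than in CONS_180 (-1.61). The part of cell composition in the value of region D was not tested.

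A value this low is rare in regions that are otherwise well covered, a description added after the values were seen. Of 2747 distinct regions with a median of at least 6 over the libraries, 84 held a value under 3.5 in any library. In both PEAK_140 libraries, 2 regions did so, region D and a region of Klf12, a transcriptional repressor. The authors subtracted input tags before the values were computed. Since the input values were not analysed here, few immunoprecipitated tags and many input tags cannot be told apart.

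None of the other regions named Ces1f passed the test in any comparison. At region A the VEH libraries stood at 7.31 and 6.74, PEAK_140 at 6.83 and 6.97, NADIR_180 at 6.19 and 6.22, and CONS_180 at 7.06 and 6.43. The CONS_140 libraries stood at 6.11 and 3.03, so their spread was wider than any difference between the other groups. The CONS_140 difference from VEH was -2.45 (SE 0.74, adjusted p = 0.31). It was -3.99 (adjusted p = 0.032) without CONS_140 replicate 1 and -0.92 without CONS_140 replicate 2, so that 1 library decides it. Of the 2747 well covered regions, CONS_140 replicate 2 held 28 under 3.5, the VEH library of 180 min 38, and the PEAK_140 libraries 13 and 9.

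Region B ran from 4.00 in PEAK_140 replicate 1 to 5.48 in VEH at 140 min, and its groups overlapped. Region C ran from 2.85 to 3.69, and most of its libraries sat at the lowest value of the region, where a decrease could not be measured.

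Ces1d, the triacylglycerol hydrolase, had its highest values under constant CORT. At its row with tags, VEH stood at 4.42 and 3.58, PEAK_140 at 3.58 and 3.57, and NADIR_180 at 4.20 and 3.57. CONS_140 stood at 5.71 and 5.21 and CONS_180 at 4.57 and 4.97. All 4 CONS libraries lay above all 6 others. VEH at 180 min, both PEAK_140 libraries and NADIR_180 replicate 2 sat at or next to the lowest value of the row, so a decrease below it could not be measured. PEAK_140 was below CONS_140 by a difference of -1.89 (SE 0.37, adjusted p = 0.086), which did not pass. It passed with the replicate number as a block (adjusted p = 0.035) and with each library centred on its median (-1.65, adjusted p = 0.022). The CONS_140 difference from VEH was 1.46 (SE 0.37, adjusted p = 0.16). Without CONS_140 replicate 2 both comparisons passed, at -2.14 (adjusted p = 0.014) and 1.71 (adjusted p = 0.035).

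Ces2e, a drug and acylglycerol hydrolase, had little signal in this assay. VEH stood at 2.90 and 2.55, PEAK_140 at 2.71 and 2.55, and NADIR_180 at 2.70 and 2.55. CONS_140 stood at 3.12 and 2.55, and both CONS_180 libraries at 2.55. In each group at least 1 library sat at or next to the region's lowest value, and no comparison passed.

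**Figure D2:**
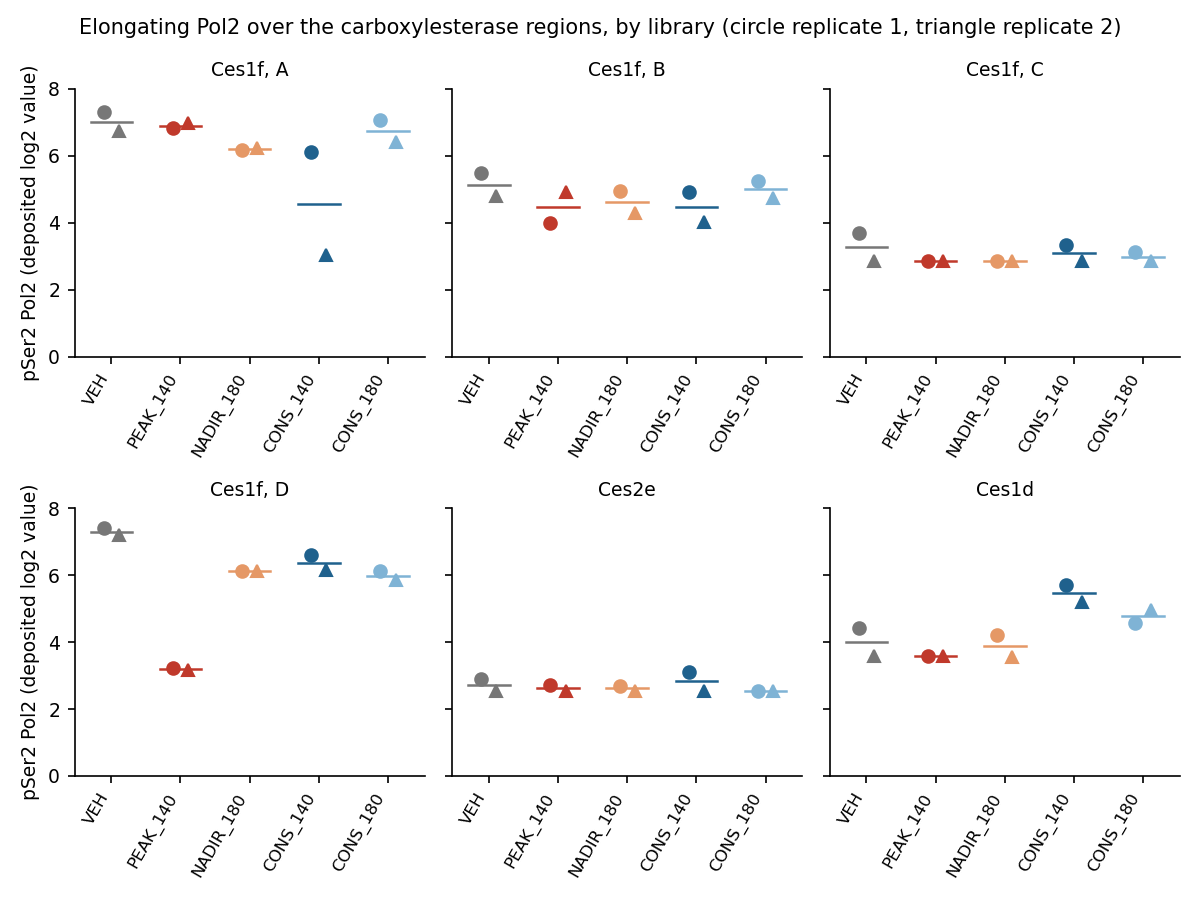
Deposited pSer2 Pol2 log2 value of each library (circle, replicate 1; triangle, replicate 2) by group, with the group mean as a line, for regions A to D, Ces2e and the Ces1d row with tags. The PEAK_140 libraries of region D, named Ces1f in the table, at 3.23 and 3.16, stand apart from the other 8, and 1 CONS_140 library of Ces1f A stands at 3.03.

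A gene was counted when any of its regions was called, and Ces1f holds 7 of the 9 regions with tags. Calls needed an adjusted p under 0.05 and over 1.5-fold. Counted by gene, 1 of the 3 names, Ces1f through the uncertainly named region D, was called in PEAK_140 against VEH. Counted by region it was 1 of 9, beside 0.989% of the 38315 pSer2 Pol2 regions tested. Those 38315 are rows, some at a shared position, and hold 21870 distinct regions, so gene counts and these shares are in unlike units. Region D was again the 1 called in PEAK_140 against NADIR_180 (0.48% of all regions), in PEAK_140 against CONS_140 (0.0261%) and in the difference of the time effects (0.0574%). By limma 0 genes were called in NADIR_180 against VEH (0.00522% of all regions, 1 of the 9 carboxylesterase regions at an unadjusted p under 0.05) and in CONS_140 against VEH (0.788%, 4 of 9 regions). In CONS_180 against VEH 0 were called (0.214%, 1 of 9) and in NADIR_180 against CONS_180 0 (0.17%, 1 of 9). In CONS_140 against CONS_180 0 were called (0%, 2 of 9), as for all regions, of which 1134 had an unadjusted p under 0.05.

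The GR regions lay at the start of region D, before Ces1f region C and before Ces2e. GR region 836 (chr19:15294331-15294726) begins 83 bases after the start of region D, ends 478 bases after it and lies in exon 1 of ENSRNOT00000024622. The authors called it as a peak in PEAK_140 alone. VEH stood at -0.73 and -0.83 on the deposited log2 scale, and PEAK_140 at 2.32 and 2.31. NADIR_180 stood at -0.70 and 1.77, CONS_140 at 2.34 and 2.71, and CONS_180 at -0.95 and 1.93. At 140 min every CORT library lay above VEH, and at 180 min each CORT group had 1 library near VEH and 1 near the 140 min level.

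The difference from VEH at GR region 836 was 3.10 (SE 1.10) in PEAK_140 and 3.31 (SE 1.10) in CONS_140, and 1.32 and 1.27 in NADIR_180 and CONS_180. The 140 min differences were called in the fit, with adjusted p = 0.027 and 0.026, and lost without any 1 of the libraries compared (adjusted p = 0.065 to 0.098). They were under the median of all GR regions, which was 4.17 in PEAK_140 and 3.38 in CONS_140. PEAK_140 and NADIR_180 differed by 1.78 (SE 1.10, adjusted p = 0.17), and the time effects by -0.26 (SE 1.56, adjusted p = 0.89). Region 836 ranked 2904th of 3981 by its PEAK_140 difference. Between PEAK_140 and CONS_140, GR region 836 differed by -0.21 (SE 1.10, adjusted p = 0.94), too imprecise to show that the groups were equal. The polymerase values at region D were 3.23 and 3.16 in PEAK_140 and 6.60 and 6.15 in CONS_140. A link between GR at region 836 and polymerase at region D was not tested.

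GR region 1237 (chr19:15135757-15136534) lies in intron 1 of ENSRNOT00000083500, on a long terminal repeat, and its centre lies at -3.77 kb from the start of region C. The authors called it in PEAK_140 and CONS_180. VEH stood at -0.74 and -0.92, and PEAK_140 at 4.85 and 4.37. NADIR_180 stood at 1.93 and -0.52, CONS_140 at 3.73 and 3.60, and CONS_180 at 3.32 and 3.61. PEAK_140, CONS_140 and CONS_180 did not overlap VEH, and the NADIR_180 libraries lay apart from each other and below the other CORT libraries.

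PEAK_140 exceeded NADIR_180 at GR region 1237 by 3.91 (SE 0.81, adjusted p = 0.0036), and NADIR_180 was below CONS_180 by a difference of -2.76 (SE 0.81, adjusted p = 0.023). The difference of the time effects was 3.71 (SE 1.15, adjusted p = 0.032), beside a median of 3.11 over all GR regions. The comparison of NADIR_180 with CONS_180 lost its call without NADIR_180 replicate 2 (-1.53, adjusted p = 0.068) or either CONS_180 library (adjusted p = 0.084 and 0.097). The difference of the time effects lost its call without any 1 PEAK_140, CONS_140 or CONS_180 library (adjusted p = 0.052 to 0.099).

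GR region 1730 (chr19:69151-69776) is intergenic, with its centre at -16.14 kb from the Ces2e start. It is closer to Ces2a, another drug-hydrolysing carboxylesterase, to which the table assigns it at a distance of -5160 bases. It was called in PEAK_140 and CONS_180. VEH stood at -0.82 and -1.0, PEAK_140 at 4.75 and 5.12, and NADIR_180 at -0.76 and -0.59. CONS_140 stood at 3.89 and 4.20 and CONS_180 at 3.67 and 3.53. Both trough libraries lay next to the VEH libraries, and all 4 constant libraries lay between the trough and the peak.

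At GR region 1730 PEAK_140 exceeded NADIR_180 by 5.61 (SE 0.57, adjusted p = 0.00025), beside a median of 3.20 over all GR regions. NADIR_180 was below CONS_180 by a difference of -4.28 (SE 0.57, adjusted p = 0.0012), and the time effects differed by 5.17 (SE 0.80, adjusted p = 0.0047). Since these regions were selected on a peak call, which for all 3 included PEAK_140 and for regions 1237 and 1730 also CONS_180, the differences that involve PEAK_140, CONS_180 or VEH, the time effects included, are a description, and their p-values are not independent of that selection.

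**Figure D3:**
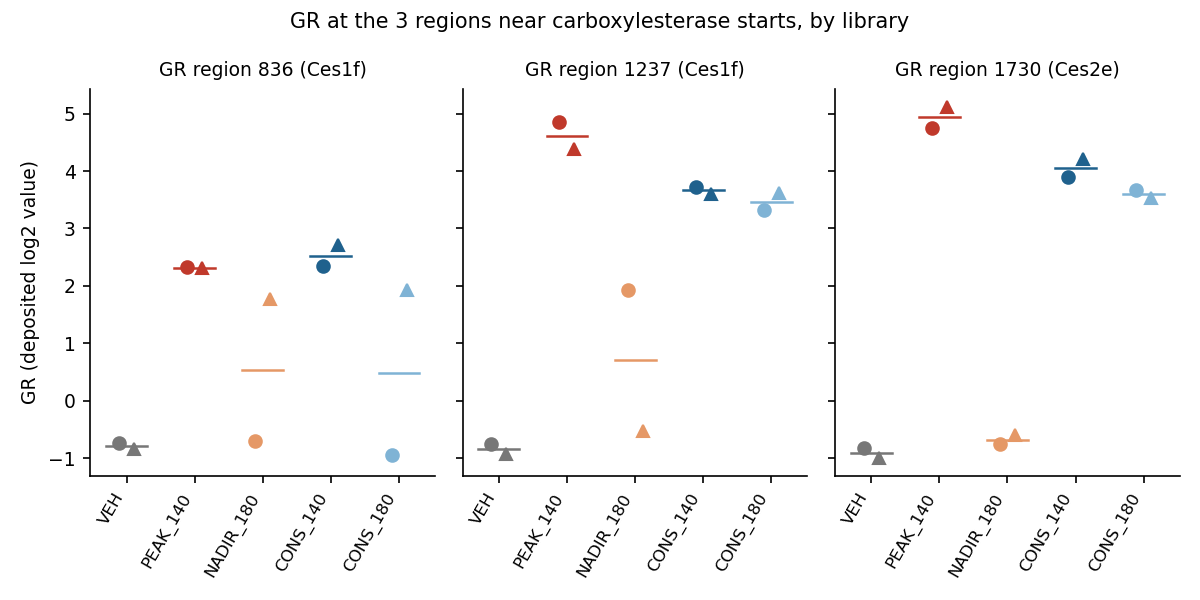
Deposited GR log2 value of each library (circle, replicate 1; triangle, replicate 2) by group, with the group mean as a line, at the 3 GR regions. Region 1730 falls to the VEH level in both NADIR_180 libraries, and region 836 has 1 low and 1 high library in each 180 min CORT group.

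Of the 3 regions, all 3 were called in PEAK_140 against VEH (80.5% of all GR regions) and in CONS_140 against VEH (65.1%), and 2, regions 1237 and 1730, in CONS_180 against VEH (68.2%). The same 2 were called in PEAK_140 against NADIR_180 (69.3%), in NADIR_180 against CONS_180 (49.6%) and in the difference of the time effects (44%). By limma 0 of 3 were called, and 0 at an unadjusted p under 0.05, in NADIR_180 against VEH (7.79%), in PEAK_140 against CONS_140 (0.0502%) and in CONS_140 against CONS_180 (0%, with 194 of all regions at an unadjusted p under 0.05). Many of all GR regions were called in the same comparisons, so nothing particular to the carboxylesterases is read from these counts. With each library centred on its own median, which removes the difference in overall GR signal between libraries, none of the 3 regions was called in any comparison.

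**Figure D4:**
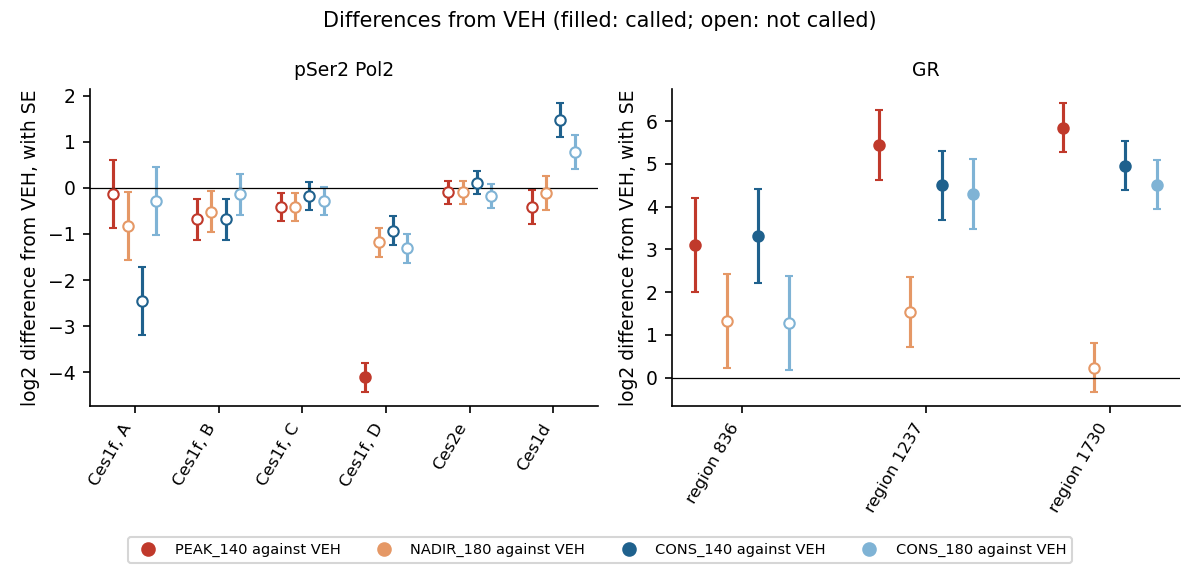
Log2 differences from VEH with standard errors in the 4 CORT groups, for the pSer2 Pol2 regions (left) and the GR regions (right); filled points were called. Region D (labelled Ces1f, D) in PEAK_140, at -4.11, is the called pSer2 Pol2 point, and all 3 GR regions were called in PEAK_140 and CONS_140.

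In the RNA of 180 min, Ces2e rose with pulsatile CORT, and Ces1f and Ces1d did not pass the test. Levels are given as CPM, counts scaled to the size of each library after its adjustment by TMM, the normalisation of the edgeR fit. Ces2e (ENSRNOG00000011635) stood at 61.0, 86.1 and 64.5 CPM in PULS VEH and at 86.6, 183 and 127 CPM in PULS CORT. It stood at 74.8, 86.2 and 84.2 CPM in CONS VEH and at 65.6, 86.8 and 107 CPM in CONS CORT. The lowest PULS CORT library was barely above the highest PULS VEH library, and the CONS groups overlapped.

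The Ces2e means were 70.6 ± 13.6 CPM in PULS VEH and 132 ± 48.6 CPM in PULS CORT, against 81.7 ± 6.10 CPM in CONS VEH and 86.6 ± 20.8 CPM in CONS CORT (SD, n = 3). The log2 difference was 0.90 with pulses (SE 0.23, edgeR adjusted p = 0.028) and 0.09 with constant infusion (SE 0.22, adjusted p = 0.86). The difference between these responses was -0.82 (SE 0.32, adjusted p = 0.29), so the 2 patterns of infusion were not shown to differ. Without PULS CORT replicate 2 the pulsatile difference was 0.60 (adjusted p = 0.15). The call was also lost without PULS CORT replicate 3 (0.93, adjusted p = 0.060), PULS VEH replicate 1 (0.81, adjusted p = 0.098) or PULS VEH replicate 3 (0.85, adjusted p = 0.090).

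Ces1f (ENSRNOG00000015438) was abundant in every library. It stood at 1327, 1439 and 1255 CPM in PULS VEH and at 2055, 1577 and 1455 CPM in PULS CORT. It stood at 1456, 719 and 1436 CPM in CONS VEH and at 1325, 1575 and 1640 CPM in CONS CORT. All 3 PULS CORT libraries lay above the PULS VEH libraries, the closest by a small margin, and CONS VEH replicate 2 lay far below the rest.

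The log2 difference of Ces1f was 0.34 with pulses (SE 0.21, adjusted p = 0.40) and 0.33 with constant infusion (SE 0.21, adjusted p = 0.36). Without CONS VEH replicate 2 the constant difference was 0.07. Region D, like regions A to C, is assigned to the same Ensembl gene as this RNA count. Whether reads from region D entered the count was not checked. Since the name of region D is uncertain, its polymerase and the RNA of Ces1f may belong to different genes, and they were not compared. Near-identical paralogs may share or lose reads. In bulk liver, fewer cells of a type and less RNA per cell cannot be told apart.

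Ces1d (ENSRNOG00000015519) had 2 to 12 reads per library, or 0.495 to 1.69 CPM. At that depth its differences of -0.22 with pulses (SE 0.60) and 0.05 with constant infusion (SE 0.43) are too imprecise to show a direction.

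**Figure D5:**
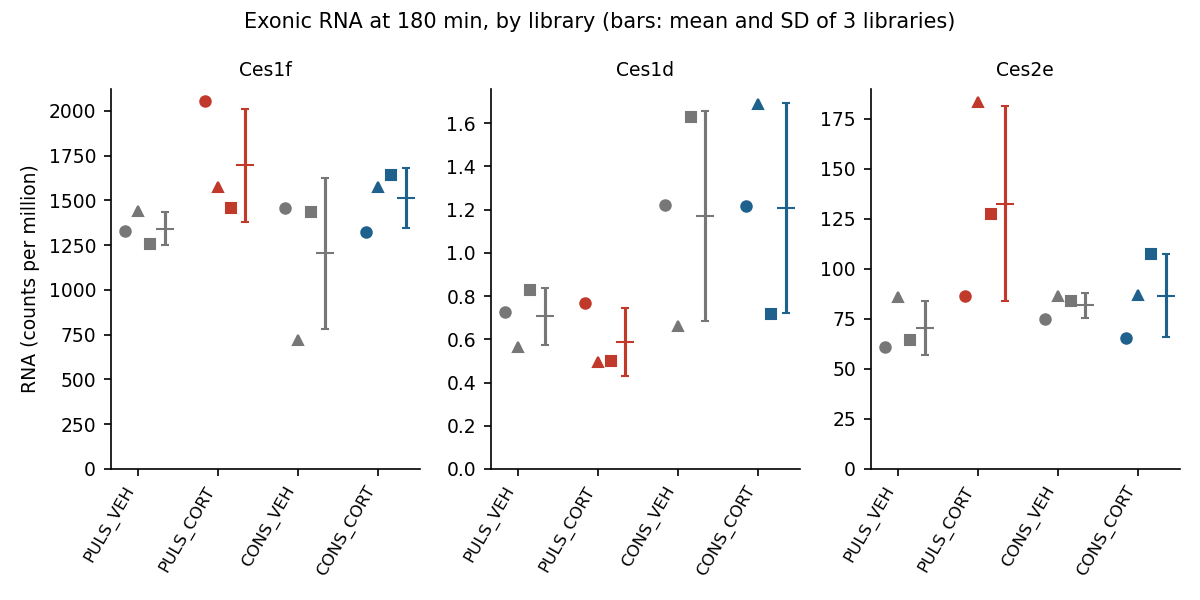
RNA level in CPM of each of the 12 libraries at 180 min by group, with the mean and SD, for Ces2e, Ces1f and Ces1d, each on its own axis from 0. Ces2e reaches 183 and 127 CPM in PULS CORT, and 1 CONS VEH library of Ces1f stands at 719 CPM.

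By edgeR 1 of the 3 genes was called in PULS CORT against PULS VEH (4.23% of the 14092 genes tested). In CONS CORT against CONS VEH 0 of 3 were called (9.2% of all genes; 0 at an unadjusted p under 0.05). In the difference of the responses 0 were called (0.0284%; 1, Ces2e, at an unadjusted p under 0.05), and 0 in PULS VEH against CONS VEH (0%; 0 of 3, and 1286 of all genes, at an unadjusted p under 0.05). DESeq2 called the same numbers of the 3 genes in each.

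The genes whose RNA followed the members most closely over the 12 libraries were found by Pearson's r on log2 CPM among 7303 genes of at least 10 CPM. They were Rsrp1 (0.87), Anapc7 (0.86) and Mrps22 (0.84) for Ces2e, Nop14 (0.86), Gmppa (0.85) and Klhl22 (0.83) for Ces1f, and Hibadh (0.88), Rab11b (0.86) and Ddx46 (0.84) for Ces1d. The libraries share their groups and their depth, and the best of many genes is high by selection. Ces1d itself, at a mean of 0.918 CPM, lay below that minimum, so its correlations rest on few reads.

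Of 8 other carboxylesterase genes, 6 were tested in RNA and none was called in any of the 4 comparisons. Over all genes 4.23% were called with pulses and 9.2% with constant infusion. The shares were 0.0284% in the difference of the responses and 0% between the vehicle groups. With so few genes, nothing particular to the family is read from these counts. Ces2a stood at 48.9, 45.3 and 46.5 CPM in PULS VEH and at 54.9, 103 and 67.4 CPM in PULS CORT. Its difference was 0.67 (SE 0.22, adjusted p = 0.088), and PULS CORT replicate 2 was the highest library for Ces2a as for Ces2e. With constant infusion Ces2h differed by -0.55 (SE 0.14, adjusted p = 0.017), under 1.5-fold, and Ces4a by -0.76 (SE 0.28, adjusted p = 0.094). The median difference of the 6 was 0.25 with pulses and -0.17 with constant infusion. In pSer2 Pol2, 3 of the 8 were tested and none was called, beside at most 0.989% of all regions in any comparison.

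Among 13 other esterases and neutral lipid hydrolases of liver, 10 were tested in RNA. With pulses 2 fell and none rose: Abhd5, the co-activator of adipose triglyceride lipase, by a log2 difference of -1.0 (adjusted p = 0.037), and hepatic lipase, Lipc, by -0.61 (adjusted p = 0.031). With constant infusion 5 fell and none rose, namely Abhd5 (-0.97), Lipc (-0.84), the monoacylglycerol lipase Mgll (-0.89), butyrylcholinesterase, Bche (-1.40), and arylacetamide deacetylase, Aadac (-0.60). Over all 14092 genes tested, 4.23% were called with pulses (344 fell) and 9.2% with constant infusion (670 fell). In the difference of the responses none of the 10 was called (0.0284% of all genes), so the 2 patterns of infusion were not shown to differ. The median difference of the 10 was -0.24 with pulses and -0.45 with constant infusion, beside -0.01 and -0.01 over all genes. This list was drawn up with earlier results known, so its counts are a description. None of the 10 with pSer2 Pol2 rows was called in any comparison, beside at most 0.989% of all regions.

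Of 9 transcription factors known to act on carboxylesterase genes, the xenobiotic receptor PXR, Nr1i2, rose in RNA with pulses (0.97, adjusted p = 0.00067). With constant infusion Nr1i2 (1.62), the related receptor CAR, Nr1i3 (1.03), the fatty acid receptor Ppara (1.5) and the glucocorticoid-responsive factor Klf9 (2.02) rose. The antioxidant factor Nfe2l2 (-1.21) and the lipogenic factor Srebf1 (-1.54) fell. Over all genes 4.23% were called with pulses and 9.2% with constant infusion, and these factors were listed with earlier results known. In the difference of the responses none of the 9 was called (0.0284% of all genes), so the 2 patterns of infusion were not shown to differ. In pSer2 Pol2, Nfe2l2 fell in PEAK_140 (-2.38, adjusted p = 0.0061), and Klf9 (1.99), Nr1i2 (1.89) and Nr1i3 (2.10) rose in CONS_140. Of all pSer2 Pol2 regions 0.989% were called in PEAK_140 against VEH and 0.788% in CONS_140 against VEH.

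The tissue label was checked against RNA markers. The summed level of 5 hepatocyte markers was 94650 to 145307 CPM per library, and the intestinal markers (3 of 4 in the table) summed to 0.192 to 1.99 CPM. The 5 Kupffer cell markers summed to 208 to 375 CPM with Cd5l at 0, the 4 cholangiocyte markers to 7.70 to 14.6 CPM with Krt19 at 0, the endothelial markers (4 of 5 in the table) to 241 to 339 CPM and the leukocyte markers to 35.8 to 73.8 CPM. A level of 0 is only what the table lists, since Pnpla2 and Pon2, which liver is known to express, were also listed at 0 in all 12 libraries.

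The summed stellate cell markers stood at 241 to 269 CPM in PULS VEH and 163 to 195 CPM in PULS CORT, and at 229 to 253 CPM in CONS VEH and 152 to 175 CPM in CONS CORT. Most of the sum came from Reln, with a mean of 164 CPM, and Pdgfrb, with 38.9 CPM. Of the 4 markers none was called with pulses (4.23% of all genes). With constant infusion 1 was called (9.2% of all genes), Pdgfrb (-1.29, adjusted p = 0.00035). Reln differed by -0.54 with pulses (adjusted p = 0.017) and -0.45 with constant infusion (adjusted p = 0.024), under 1.5-fold in both. Lrat differed by -0.08 and -0.16, and Des by 0.34 and -0.23. Among the hepatocyte markers Cps1 rose, by 0.97 with pulses and 1.18 with constant infusion. Their part in the RNA differences was not tested.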

How the data were processed

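GR and pSer2 Pol2 were profiled by ChIP sequencing and RNA by sequencing in rat liver. Per the labels and the study's methods, the authors trimmed RNA reads (bbduk), aligned them to rn6 (STAR) and counted exonic reads per gene (featureCounts 1.6.2). The deposited RNA table holds raw counts. For ChIP, the authors trimmed reads (Trimmomatic 0.36), aligned them to rn6 with bowtie2, removed duplicates (SAMtools), counted tags with HOMER 4.9.1 in peaks or over gene starts, subtracted input and deposited normalised log2 values. These values are not whole tags, so intervals from counting error were not given, and the count test of the study was replaced by limma.

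ChIP log2 values were fitted with limma 3.58.1 (trend, 10 libraries of an assay in 1 fit) over regions with tags. RNA counts were tested with edgeR 4.0.16 (quasi-likelihood, TMM, genes with more than 10 reads in all, 12 libraries in 1 fit) in R 4.3.3, with DESeq2 1.42.0 as an alternative. Adjusted p-values are Benjamini-Hochberg over all features tested, and a call needs an adjusted p under 0.05 and over 1.5-fold. All members and GR regions within 50 kb of a member start are named, as are listed esterases and transcription factors that were called and Ces genes nearest a GR region. Klf12, and the RNA values of Ces2a, Ces2h and Ces4a, were picked after their values were seen. The members and lists were chosen with earlier results of these data known. The p-values measure the spread between these libraries. On simulated data with 200 changed features, recovery was measured for differences of 1 to 2 on the log2 scale. It was 67.5% in pSer2 Pol2 (PEAK_140 against VEH, 38315 regions) and 63.5% in RNA (PULS CORT against PULS VEH, 14092 genes). In GR (PEAK_140 against VEH, 3981 regions) it was 1%, and 69% for differences of 3 to 5. In the GR data 80.5% of regions were called there, far more than the 200 changed in the simulation. The adjusted p cut was thus stricter in the simulation, and its GR recovery does not describe the GR calls above. The alternatives were other normalisations and filters, each comparison's libraries alone, the replicate number as a block, a distance of 25 kb and leaving out each library.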

Additional observations from a re-analysis of the deposited data

Results flagged for a closer look

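In 3 regions the change between 140 and 180 min differed between pulsatile and constant CORT by the interaction test. At region D, named Ces1f in the table (ENSRNOT00000024622), pSer2 Pol2 gave a difference of -3.31 (limma adjusted p = 0.032), with PEAK_140 libraries at 3.23 and 3.16 and the other CORT libraries from 5.86 to 6.60. At GR region 1237 the difference was 3.71 (adjusted p = 0.032) and at GR region 1730 it was 5.17 (adjusted p = 0.0047), in both with NADIR_180 below the other CORT groups. The median of all GR regions was 3.11, and these GR regions were selected on peaks of PEAK_140 and CONS_180.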

How the results depend on the processing

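Of 1023 values of single genes and regions recomputed, 953 stayed on their side of the threshold (25 of them with the opposite sign, uncalled in both), 57 lost a call, 10 gained one and 3 reversed. Of the counts of called members, 297 stayed within 1.5 times, 44 fell and 9 rose by more. With the libraries of each comparison alone, the pSer2 Pol2 count fell from 1 to 0 in PEAK_140 against VEH, NADIR_180 and CONS_140 and in the difference of the time effects, and the GR count from 2 to 1 in NADIR_180 against CONS_180. With all regions kept, the pSer2 Pol2 time effect count was 0. Centring each library on its median gave pSer2 Pol2 counts of 2 in CONS_140 against VEH, 1 in CONS_180 against VEH and 2 in PEAK_140 against CONS_140, and GR counts of 0 in all comparisons. It reversed GR region 836 in PEAK_140 (-1.52) and CONS_140 (-0.80) against VEH, and GR region 1237 in NADIR_180 against CONS_180 (0.12). The upper part of regions by mean signal gave 2 for pSer2 Pol2 in PEAK_140 against CONS_140. The replicate block gave 2 there, adding Ces1d (adjusted p = 0.035), and changed no other count. Nothing says that libraries with 1 number were paired, and deviations of same-numbered libraries correlated at -0.0265 to 0.0718 for GR, 0.155 to 0.553 for pSer2 Pol2 and -0.0488 to 0.081 for RNA. The cause of these changes was not tested. Leaving out 1 library gave pSer2 Pol2 counts of 1 to 1 (PEAK_140 against VEH), 0 to 1 (PEAK_140 against NADIR_180, CONS_140 against VEH, time effects) and 0 to 2 (PEAK_140 against CONS_140). It gave GR counts of 2 to 3 in PEAK_140 and CONS_140 against VEH, 0 to 1 in NADIR_180 against VEH, 1 to 2 in NADIR_180 against CONS_180 and the time effects, and an RNA count of 0 to 1 with pulses. A group left with 1 library is assumed to vary like the others. GR region 836 lost its PEAK_140 call without either VEH or either PEAK_140 library, and GR region 1237 was called in NADIR_180 against VEH without NADIR_180 replicate 2 (2.77).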
